A study of Mus musculus with 4 samples.

Results

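The ubiquitin-specific protease genes were taken as all genes whose symbol starts with Usp followed by a digit, with symbols matched from the RefSeq accessions of the array probes. This gave 43 genes with 68 probes, of 33390 genes or unnamed accessions on the array, and 40 of the 43 were bright enough to be tested. A further 16 of the 59 such symbols in the RefSeq table had no matched probe and are not analysed here. The genes were chosen by symbol alone, but the family was put forward with earlier FLAG IP and Input levels of these arrays in view. The calls and changes below therefore describe the family and support no statement about it. Usp6nl matches the symbol rule although it encodes a GTPase-activating protein for Rab GTPases and no protease. It is counted among the 43 genes unless stated otherwise.

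Ubiquitin-specific proteases are the largest family of deubiquitinases, enzymes that cut ubiquitin from proteins or trim chains of it. They oppose ubiquitin ligases and so set whether a tagged protein is degraded, moved or altered in its activity. In the testis they act in histone turnover, receptor traffic and the building of the acrosome, and a few members are expressed mainly in germ cells.

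The samples were testes of male mice at postnatal day 7, all carrying the transgene Tg-Nanos2 enhancer-3xFLAG-Nanos2-3'UTR, in which a Nanos2 enhancer drives Nanos2 with a FLAG tag. Nanos2 is an RNA-binding protein that maintains spermatogonial stem cells. FLAG IP arrays held RNA recovered with the FLAG tag and Input arrays held the Input RNA of such testes, with 2 numbered replicates per group and 4 single-colour Agilent arrays in all. The labels name no animals, do not say whether the endogenous gene was intact, and describe no immunoprecipitation protocol. The description label of all 4 samples names a fetal gonad, against the postnatal day in the titles and characteristics, which was used here. No array of RNA recovered from testes without the tag was analysed here, so RNA that sticks without the tag cannot be told apart from RNA recovered through it, and no change below stands for binding.

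A level here is the log2 processed signal of a gene's brightest probe after subtracting the 75th percentile of its array. A change is the mean FLAG IP level minus the mean Input level, given with its limma standard error (n = 2 arrays in each group). The 75th percentile signal was 1019 and 1267 in FLAG IP arrays and 1474 and 1676 in Input arrays, and between 66.3% and 68.4% of probes were well above background. The number of arrays limits the precision. Transcripts of undifferentiated spermatogonia moved with the groups: all 7 tested markers were called higher in the FLAG IP, beside 15.8% of all tested features. Their summed level was 4.01 and 3.68 in FLAG IP arrays, against 1.52 and 1.53 in Input arrays. One of the 7, Ret, was not well above background in Input and entered the test through the FLAG IP alone. Another of the 7, and part of their summed level, was Nanos2 itself, which the transgene carries. It was at -1.94 and -2.44 in FLAG IP arrays, against -3.87 and -3.66 in Input arrays, without a way to tell transgene from endogenous transcript. General germ cell markers were called in neither direction (0 of 6, beside 37.1% of all tested features called). Their summed levels were 5.74 and 6.21 in FLAG IP arrays and 5.78 and 5.76 in Input arrays. Sertoli cell markers were lower for 3 of 7, with summed levels of 4.84 and 4.84 in FLAG IP arrays and 5.42 and 5.46 in Input arrays. Leydig cell markers were lower for 3 of 6, peritubular myoid markers for 2 of 5 and macrophage markers for 3 of 3, and endothelial markers for 0 of 4. Red blood cell markers were lower for 1 of 2. Beside these counts, 21.3% of all tested features were called lower. Lhcgr, among the lower Leydig markers, was well above background on Input arrays only and entered the test through them. The part of these markers in the changes below was not tested.

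In the FLAG IP, 10 of the 40 tested Usp genes were higher than in Input and 4 were lower, and the other 26 were not called. A call means an adjusted p under 0.05 in limma, adjusted by Benjamini-Hochberg across the 21590 features tested. These shares of 25% and 10% of the Usp genes stand beside 15.8% called higher, 21.3% called lower and 37.1% called in either direction over all of those features. Nothing is read from that contrast. The higher genes were Usp2, Usp26, Usp9y, Usp45, Usp1, Usp29, Usp53, Usp33, Usp18 and Usp6nl, the last not a protease, and the lower ones were Usp25, Usp28, Usp40 and Usp46. Changes ran from -0.79 for Usp25 to 1.33 for Usp2, with a median of 0.26 beside -0.15 for all tested features. No Usp gene was called lower by 2-fold or more, and 4 were called higher by at least that much (Usp2, Usp26, Usp9y and Usp45), beside 9.29% of all features called 2-fold or more higher and 8.65% called 2-fold or more lower. The Input comes from testis of mixed cell types, in which fewer cells of a type and less RNA per cell cannot be told apart.

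Leaving out 1 array leaves a group with a lone sample, which is then assumed to vary like the other group. Without Input replicate 1, limma called 0 Usp genes, and without Input replicate 2 it called only Usp26, while the median change of the tested Usp genes was 0.31 and 0.21, beside 0.26 with all arrays. Calls over all features fell as well, to 977 higher and 708 lower without Input replicate 1 and to 1011 higher and 553 lower without Input replicate 2. Without FLAG IP replicate 1 it called 12 higher and 1 lower, and without FLAG IP replicate 2 it called 12 higher and 5 lower. Scaling the arrays to spike-in spots put the median of all features at -1.20, in place of -0.15, and no Usp gene was then higher while 16 were lower. Measured against that shift, in a setting added after seeing the data, the Usp calls were 11 higher and 4 lower. Such a setting takes out the shift itself, so its calls do not bear on the spike-in result.

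Adjusted p-values of the 14 called genes ran from 0.00706 for Usp9y to 0.0364 for Usp46. The next gene outside the threshold was Usp42 at an adjusted p of 0.0518. Both FLAG IP arrays lay above both Input arrays for 21 of the 40 genes and below them for 13, and the groups overlapped for 6. Over all tested features the arrays separated upward for 29.8%, downward for 44.7% and in either direction for 74.5%. The median distance between replicates over the Usp genes was 0.17 for FLAG IP and 0.09 for Input, beside a median absolute change of 0.49. That of all tested features was about the same, at 0.50.

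**Figure D1:**
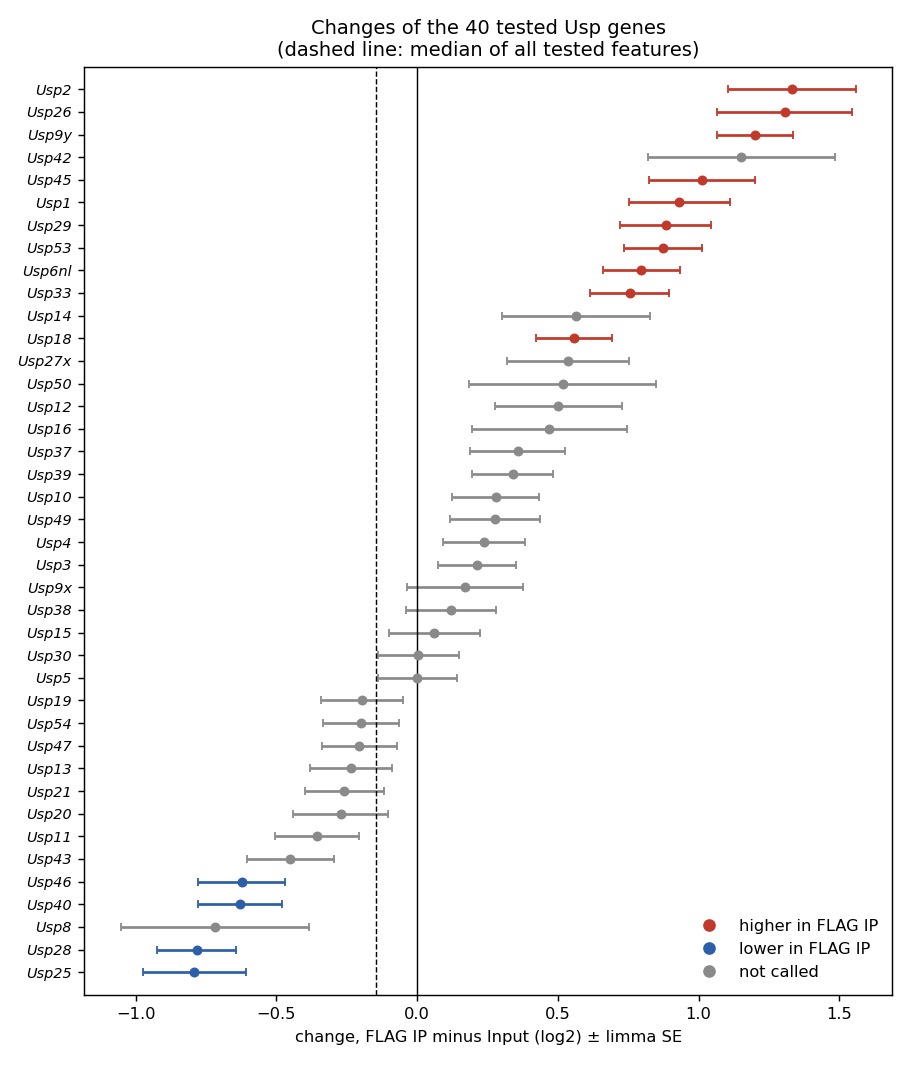
Changes (FLAG IP minus Input, log2, on the horizontal axis) of the 40 tested Usp genes, with bars of 1 limma standard error and n = 2 arrays per group. Red points are called higher in the FLAG IP, blue points lower and grey points not called, and the dashed line is the median of all tested features at -0.15. The changes run from -0.79 for Usp25 to 1.33 for Usp2.

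Members linked to germ cells or to the Y chromosome were called higher for 3 of 4 tested genes, beside 15.8% of all features, with a median of 1.04. The call of Usp29 among them was lost when its probes were averaged. Usp26, an X-linked gene expressed mainly in testis (NM_031388), was at 0.13 and -0.01 in FLAG IP arrays, against -1.55 and -0.95 in Input arrays, a rise of 1.31 ± 0.24 or 2.47-fold. The distance between the groups exceeded the distance between replicates, and the Input arrays differed by 0.60, the largest gap between Input arrays among the 40 tested members. Its other probe had a similar change of 1.18 ± 0.14 and was also called.

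Usp9y, the Y-linked counterpart of Usp9x (NM_148943), was at -1.73 and -1.66 in FLAG IP arrays, against -2.90 and -2.90 in Input arrays. Replicates were close and the rise was 1.20 ± 0.13. Among the brightest probes of the family, it alone was at least 2-fold in all pairings of arrays across the groups. Dimmer probes of Usp26, Usp27x, Usp42 and Usp45 also reached that line. Usp9x and Usp9y are close copies, and whether a probe also binds the other transcript was not tested.

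Usp29, a paternally expressed imprinted gene (NM_021323), was dim, at -3.97 and -3.98 in FLAG IP arrays against -5.00 and -4.72 in Input arrays, and rose by 0.88 ± 0.16. The call rests on this probe, since the other one was at -6.11 and -5.18 in FLAG IP arrays and -4.93 and -5.74 in Input arrays, with overlapping groups and a change of -0.31 ± 0.42. Usp50, a little-studied member, had 0.52 ± 0.33 and overlapping groups. Its FLAG IP arrays were at -4.14 and -5.00, the first above both Input arrays at -5.28 and -4.90 and the second between them.

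The 3 members not tested were Usp17la, Usp17lb and Usp17lc, closely similar genes of the cluster first known as Dub genes, which cytokines induce in mouse blood cells. Usp17la was well above background on 1 FLAG IP array only, at -6.84 and -5.17 in FLAG IP arrays and -6.05 and -7.23 in Input arrays, so the groups overlapped. Usp17lb and Usp17lc were not well above background on any of the 4 arrays, and no fold is given for them.

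**Figure D2:**
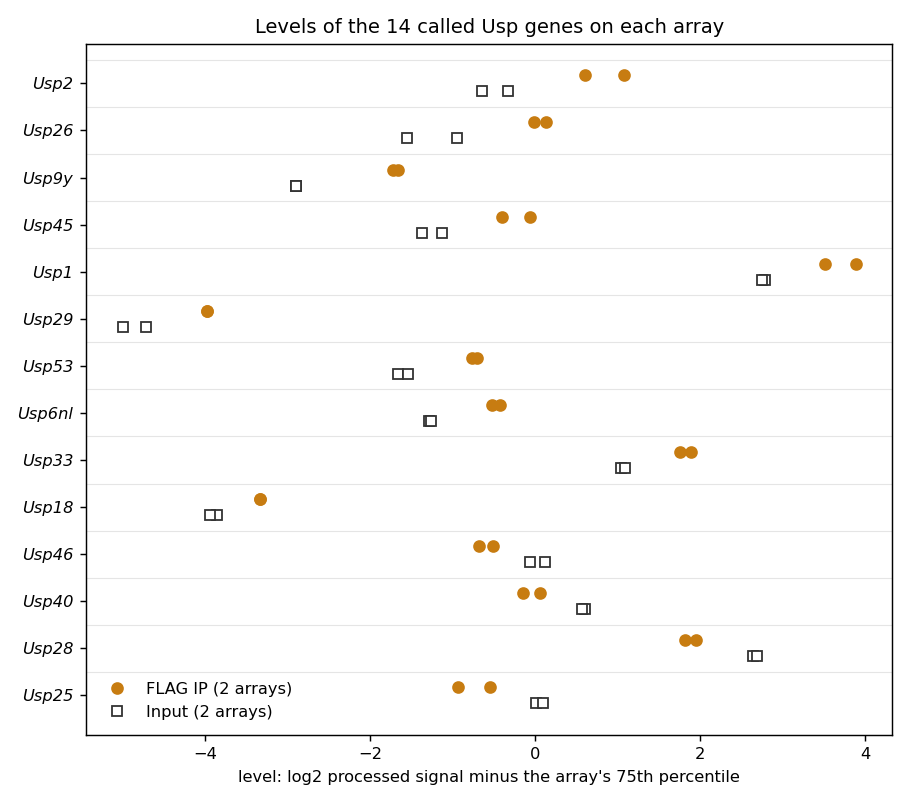
Levels (log2 processed signal relative to the 75th percentile of each array, horizontal axis) of the 14 called Usp genes on each array, with filled circles for the 2 FLAG IP arrays and open squares for the 2 Input arrays. The groups do not overlap for any of the 14, and levels of different genes come from different probes and cannot be ranked against each other.

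Members that act at membrane receptors, endosomes and junctions were called higher for 3 of 8 tested genes and lower for 0. Over all features the shares were 15.8% higher and 21.3% lower, and nothing is read from the contrast. Usp2, which acts on MDM2, cyclin D1 and membrane receptors (NM_016808), had the largest change of the family. It was at 1.08 and 0.61 in FLAG IP arrays against -0.65 and -0.33 in Input arrays, a rise of 1.33 ± 0.23 or 2.52-fold. Both FLAG IP arrays lay above both Input arrays by more than the gap within either group.

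Usp53, a tight junction protein required for hearing in mice (NM_133857), was at -0.70 and -0.76 in FLAG IP arrays, against -1.67 and -1.55 in Input arrays. It rose by 0.87 ± 0.14, with little spread in either group. Usp33, which deubiquitinates adrenergic and Robo receptors (NM_133247), was at 1.89 and 1.75 in FLAG IP arrays, against 1.04 and 1.09 in Input arrays, and rose by 0.76 ± 0.14. All 3 Usp33 probes were called higher, at 0.76, 0.87 and 0.58.

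Of the remaining members of that role, Usp10, which binds the stress granule proteins G3BP1 and G3BP2, had a change of 0.28 ± 0.15 and Usp9x, which acts on SMAD4 and on adhesion proteins, had 0.17 ± 0.21. Usp54 had -0.20 ± 0.13 and Usp20 had -0.27 ± 0.17. Usp8, which works with the endosomal sorting complex and takes part in acrosome formation, was at -1.01 and -0.07 in FLAG IP arrays against 0.21 and 0.15 in Input arrays. Its change of -0.72 ± 0.33 was not called, and its FLAG IP arrays differed by 0.94, the widest gap between FLAG IP arrays among the 40 tested members.

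DNA repair and genome stability members split, with 1 higher, 1 lower and 3 not called of 5. The shares over all features were 15.8% higher and 21.3% lower. Usp1, which deubiquitinates FANCD2 and PCNA (NM_146144), was at 3.52 and 3.89 in FLAG IP arrays against 2.79 and 2.75 in Input arrays and rose by 0.93 ± 0.18. Usp28, which stabilises MYC and acts in the DNA damage response (NM_175482), was at 1.81 and 1.95 in FLAG IP arrays against 2.64 and 2.69 in Input arrays, a change of -0.78 ± 0.14. The groups were well apart in both genes, in opposite directions. Usp37, which counters degradation of cyclin A, had 0.36 ± 0.17, Usp47, linked to base excision repair, had -0.21 ± 0.13 and Usp11, which acts on BRCA2 and TGF-beta receptors, had -0.36 ± 0.15, none of them called.

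Usp1, Usp12 and Usp46 share the activating partner WDR48, a WD repeat protein, and 1 was called higher, 1 lower and 1 not at all. Beside these stand 15.8% of all features called higher and 21.3% called lower, and nothing is read from the contrast. Usp46, which regulates neurotransmitter receptors and behaviour in mice (NM_177561), was at -0.68 and -0.51 in FLAG IP arrays against 0.12 and -0.07 in Input arrays, a change of -0.62 ± 0.15. Usp12, its close paralogue, was at 2.41 and 1.87 in FLAG IP arrays against 1.57 and 1.71 in Input arrays, a change of 0.50 ± 0.23 that was not called. The Usp12 groups did not overlap, but its FLAG IP arrays were as far apart as the groups were. Wdr48 was called higher, at 1.74 and 1.73 in FLAG IP arrays against 1.23 and 1.28 in Input arrays (0.48 ± 0.13). Dmwd, from the same list of partners, was called lower, at 1.58 and 1.66 in FLAG IP arrays against 2.23 and 2.22 in Input arrays (-0.61 ± 0.14).

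None of the 6 tested histone and chromatin members was called by limma on its brightest probe, beside 37.1% of all features called. Usp42, which acts on p53 and histone H2B, was at 1.45 and 0.70 in FLAG IP arrays against -0.35 and 0.20 in Input arrays, with a change of 1.15 ± 0.33. Its groups did not overlap, but replicates differed by over 0.5 in both. Usp27x, an X-linked counterpart of the SAGA complex protease, had 0.54 ± 0.22 and Usp16, which removes ubiquitin from histone H2A, had 0.47 ± 0.27. Usp49 had 0.28 ± 0.16, Usp3 had 0.21 ± 0.14 and Usp21 had -0.26 ± 0.14, all of which are known to act on histones. The dimmer Usp49 probe had the other sign, at -0.83 ± 0.31, without a call.

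The 3 members that handle free ubiquitin chains or sit on the proteasome were not called, beside 37.1% of all features called. Usp14, the proteasome-bound member, was at 1.06 and 1.75 in FLAG IP arrays against 0.89 and 0.78 in Input arrays (0.57 ± 0.26), and FLAG IP replicate 2 stood well above the other 3 arrays. Usp5, which takes apart unanchored chains, was at 1.95 and 1.82 in FLAG IP arrays against 1.88 and 1.89 in Input arrays, so its groups overlapped, and its paralogue Usp13 had -0.23 ± 0.15. Likewise uncalled were the SMAD and splicing members Usp4 (0.24 ± 0.15), Usp15 (0.06 ± 0.16) and Usp39 (0.34 ± 0.14), the last a spliceosome protein without protease activity. Usp30 of the mitochondrial outer membrane had 0.00 ± 0.14 and Usp19, with a form anchored in the endoplasmic reticulum, had -0.20 ± 0.14.

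Immune signalling members went apart. Usp18, which removes the ubiquitin-like modifier ISG15 (NM_011909), was at -3.34 and -3.33 in FLAG IP arrays against -3.85 and -3.94 in Input arrays, a rise of 0.56 ± 0.14. Usp25, which modulates cytokine receptor signalling (NM_013918), was at -0.93 and -0.55 in FLAG IP arrays against 0.01 and 0.10 in Input arrays, a change of -0.79 ± 0.18, and its other probe gave -1.18 ± 0.19. Neither gene had overlapping groups.

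Of 4 less characterised members, Usp45, which acts on the repair nuclease partner ERCC1 (NM_152825), was at -0.40 and -0.07 in FLAG IP arrays against -1.13 and -1.37 in Input arrays. It rose by 1.01 ± 0.19, and its other probe rose by 1.19 ± 0.14. Usp40 (NM_001033291) was at -0.15 and 0.06 in FLAG IP arrays against 0.61 and 0.56 in Input arrays, a change of -0.63 ± 0.15. Usp38 had 0.12 ± 0.16 and Usp43 had -0.45 ± 0.15, neither called. The dimmer Usp38 probes had the other sign, at -0.41 ± 0.13 and -0.27 ± 0.14, also without a call. Usp6nl, the Rab GTPase-activating protein (NM_181399), was at -0.43 and -0.53 in FLAG IP arrays against -1.29 and -1.26 in Input arrays and rose by 0.80 ± 0.14. Without it, 9 of 39 tested members were called higher, beside 15.8% of all features. The 39 still include Usp39, which has no protease activity.

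Calls were also compared within groups of paralogues. Of 11 groups of paralogues with more than 1 tested member, 7 had a called member beside an uncalled one and 3 had no call. Of all features 37.1% were called, and nothing is read from these counts of groups. The one group called throughout was Usp25 with Usp28, whose changes were 0.0087 apart. Changes had opposite signs within 6 groups, but no group had members called in opposite directions. The 6 include Usp5 with Usp13, where the Usp5 change was 0.0011 ± 0.14. Usp2 and its paralogue Usp21 were farthest apart, by 1.59, with Usp21 at 0.32 and 0.24 in FLAG IP arrays against 0.59 and 0.48 in Input arrays.

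Usp33 and Usp20 were 1.03 apart, with Usp20 at 1.996 and 2.296 in FLAG IP arrays against 2.49 and 2.35 in Input arrays. The dimmer Usp20 probe, at 0.26 ± 0.13, had the other sign. Usp53 and Usp54 were 1.07 apart, with Usp54 at 1.038 and 0.996 in FLAG IP arrays against 1.19 and 1.25 in Input arrays. Usp54 was thus below Input on both arrays without a call.

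Usp9y and Usp9x were 1.03 apart, with Usp9x at 1.23 and 0.75 in FLAG IP arrays against 0.78 and 0.86 in Input arrays, which overlapped. In the group of Usp26, Usp29 and Usp37 all changes were positive, and Usp37 was at 0.65 and 0.95 in FLAG IP arrays against 0.49 and 0.39 in Input arrays. Usp16, the paralogue of Usp45, was at 1.64 and 2.38 in FLAG IP arrays against 1.581 and 1.498 in Input arrays. As in Usp14, FLAG IP replicate 2 was the high array. The differences between paralogues were not tested.

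**Figure D3:**
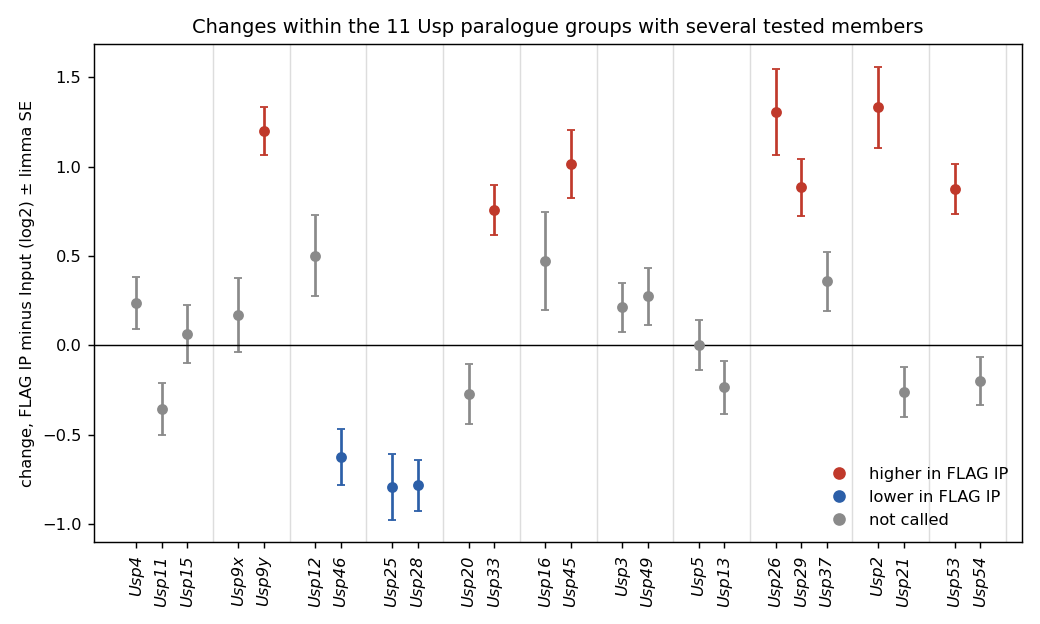
Changes (FLAG IP minus Input, log2, vertical axis) of the members of 11 Usp paralogue groups, separated by thin lines, with bars of 1 limma standard error and n = 2 arrays per group. Red is called higher in the FLAG IP, blue lower and grey not called. Usp25 and Usp28 lie side by side below 0, and Usp2 and Usp21 lie farthest apart.

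The rule takes every probe, and 20 Usp genes had more than 1. Of 65 tested probes of the family 16 were called higher and 6 lower, beside 15.6% and 20.1% of all tested probes. No Usp gene had probes called in opposite directions, and only 32 of the 4399 genes with several tested probes on the array did. The Usp count is therefore no trait of the family. Probes of opposite sign were found in 6 Usp genes: Usp20, Usp29, Usp38, Usp47, Usp49 and Usp9x. The distance between the extreme probes of a gene had a median of 0.34 in the family and 0.33 over all 4399 genes with several tested probes. Probes of 1 gene are not replicates, and which part of the transcript each one reads is not analysed here.

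In 6 genes the call differed between probes: Usp27x, Usp29, Usp40, Usp42, Usp46 and Usp9x. The dimmer Usp42 probe had the largest change of any Usp probe, at -1.05 and -2.36 in FLAG IP arrays against -4.67 and -4.12 in Input arrays, a rise of 2.69 ± 0.48 that was called. It was higher on both FLAG IP arrays by more than the gap between them. The dimmer Usp27x probe, at -3.79 and -3.47 in FLAG IP arrays against -4.87 and -4.91 in Input arrays, rose by 1.26 ± 0.17.

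The dimmer Usp9x probe was called lower, at -2.92 and -2.63 in FLAG IP arrays against -1.88 and -2.02 in Input arrays (-0.82 ± 0.17), while the brighter one had 0.17. The dimmer probes of Usp40 and Usp46 kept the sign of the brighter ones without a call, at -0.46 ± 0.16 and -0.19 ± 0.21. The 4 probes of Usp47 had changes of -0.21, 0.25, 0.49 and -0.07, and none was called.

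**Figure D4:**
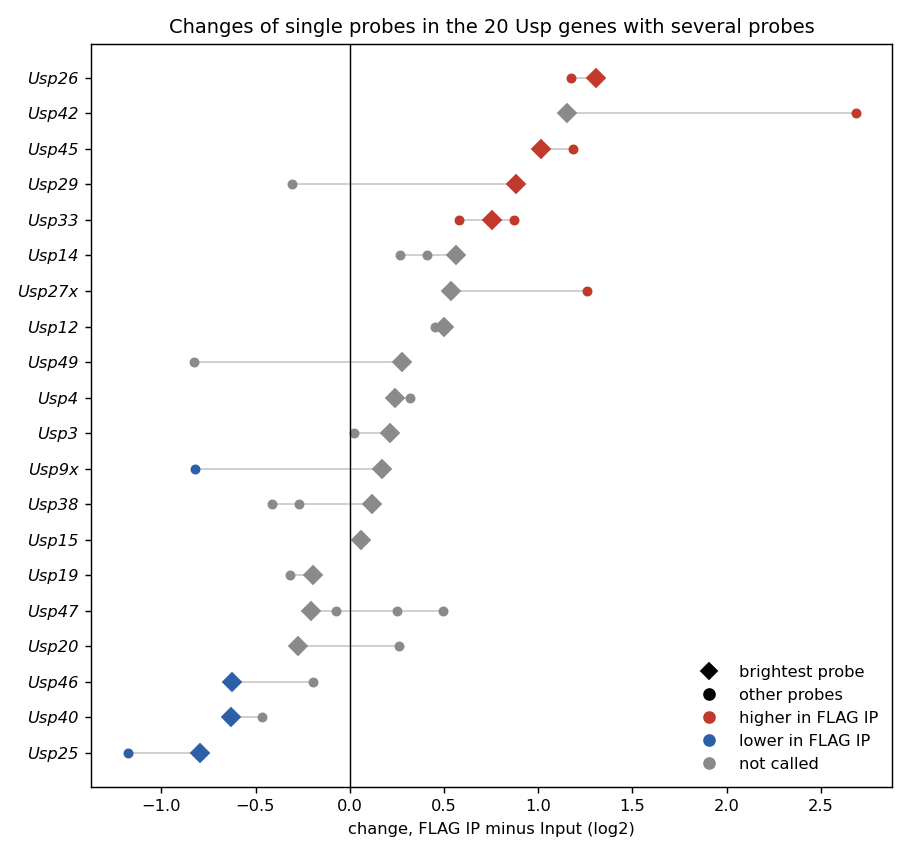
Changes (FLAG IP minus Input, log2, horizontal axis) of the single probes of 20 Usp genes with several probes, with a diamond for the brightest probe of each gene and circles for the others, coloured red for called higher in the FLAG IP, blue for lower and grey for not called. The dimmer Usp42 probe stands farthest right at 2.69, and the Usp9x probes lie on both sides of 0.

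The other enzymes of the ubiquitin system were compared by fixed lists. The list of other deubiquitinases also holds related proteins without protease activity. Of its 38 tested genes 5 were called higher and 5 lower, beside 15.8% and 21.3% of all features. The median change of the list was -0.13, close to that of all features. Yod1, an ovarian-tumour-domain protease of protein quality control, was at -1.27 and -0.92 in FLAG IP arrays against -2.18 and -2.24 in Input arrays (1.12 ± 0.17). Mysm1, a histone H2A deubiquitinase, rose by 1.03 ± 0.24. Uchl3, a ubiquitin C-terminal hydrolase, and Cops6, a COP9 signalosome subunit without protease activity, had -0.89 ± 0.16 and -0.78 ± 0.13. The count also moved with the setting, to 18 called with trend and robust moderation, 5 without a filter on dim probes, 6 without FLAG IP replicate 1 and 0 without either Input replicate.

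Of 27 tested partners and substrates of Usp proteins 5 were higher and 4 lower, with a median of 0.00. The shares over all features were 15.8% and 21.3%. Mdm2, the p53 ubiquitin ligase on which Usp2 acts, was at 3.06 and 2.93 in FLAG IP arrays against 0.94 and 1.15 in Input arrays and rose by 1.96 ± 0.15 or 3.88-fold. G3bp2, a stress granule protein, rose by 1.15 ± 0.16 and Stam, a subunit of the endosomal sorting complex that binds Usp8, by 0.998 ± 0.173. Atxn7l1, a paralogue of a SAGA subunit, rose by 0.78 ± 0.21. It was dim, at -4.47 and -4.76 in FLAG IP arrays against -5.60 and -5.19 in Input arrays. Isg15, the modifier that Usp18 removes from its targets, was dim and was called lower, with a change of -0.75 ± 0.18. Its levels were -4.69 and -5.02 in FLAG IP arrays against -4.17 and -4.03 in Input arrays. Fanci (-0.69 ± 0.15) and Dmwd (-0.61 ± 0.14) were also among the lower ones.

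Of 34 tested activating and conjugating enzymes 5 were higher and 4 lower, beside 15.8% and 21.3% of all features, with a median of -0.05. Ube2a, a RAD6-type conjugating enzyme, was at 1.46 and 1.68 in FLAG IP arrays against 0.09 and -0.01 in Input arrays (1.53 ± 0.15), and Uba6, the alternative activating enzyme, rose by 1.31 ± 0.14. Ube2n, which builds lysine-63-linked chains, was at 0.79 and 1.20 in FLAG IP arrays against 2.33 and 2.28 in Input arrays (-1.30 ± 0.19), and Birc6, a giant inhibitor-of-apoptosis protein with conjugating activity, had -1.30 ± 0.16. Ube2u was at -5.84 and -3.10 in FLAG IP arrays against -8.33 and -6.89 in Input arrays, where it was not well above background. It was at least 3.91-fold brighter in the FLAG IP by the group means, with FLAG IP replicate 2 far above replicate 1, and its measured change of 3.14 ± 1.01 was not called. Across the 27 partner, 4 ubiquitin and 34 conjugation genes tested, 19 were called, beside 37.1% of all features. The number called fell when either Input array was left out.

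**Figure D5:**
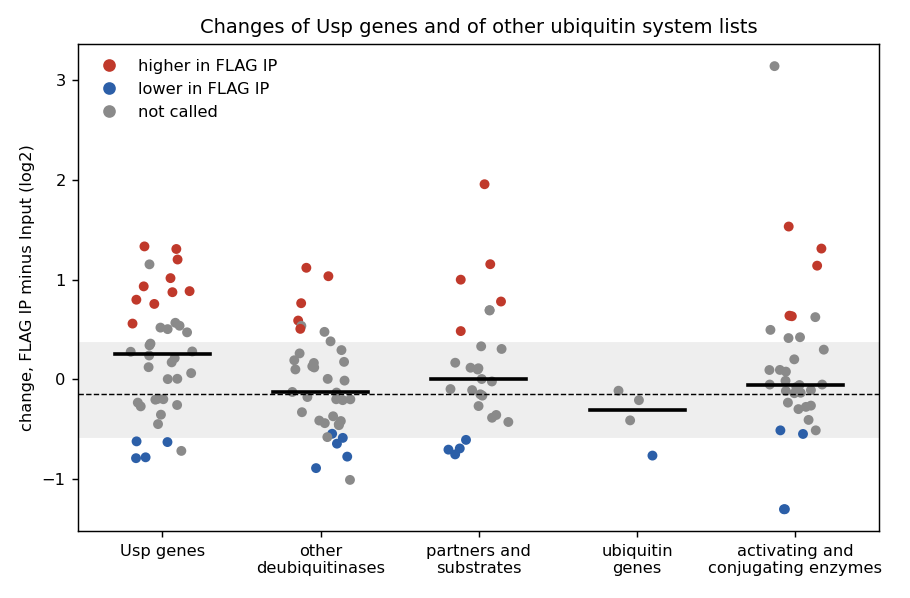
Changes (FLAG IP minus Input, log2, vertical axis) of Usp genes and 4 other ubiquitin system lists, with a point per tested gene, spread sideways at random, a thick bar at the list median and colours as called (red higher in the FLAG IP, blue lower, grey not called). The dashed line at -0.15 is the median of all tested features and the grey band spans their 25th to 75th percentile, from -0.58 to 0.37. The Usp median is 0.26 and that of the other deubiquitinases is -0.13.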

How the data were processed

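Per the file headers, spot intensities were extracted with Agilent Feature Extraction (version 9.5 in the submitters' processing notes), all 4 arrays from 1 slide. The deposited intensity of the main analysis is background-subtracted. The authors' deposited log2 table equals log2 of that signal less a constant per array, within 0.01 for 99.6% of probes, with column medians of 6.25 and 6.15 (FLAG IP) and 6.18 and 6.25 (Input). The tool used for that scaling was not stated in the labels.

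Control spots and 62 to 90 outlier spots per array were left out and spots of a probe averaged. RefSeq accessions, without versions, were matched to GRCm38.p6 symbols, which named 22951 of 41174 probes (55.7%). The brightest probe stood for a gene. Features were tested if well above background on both arrays of a group, with limma 3.58.1 in R 4.3.3 (two-sided, no covariates), after a check on simulated data. Since the labels do not tie replicates to animals, p-values measure the spread between these samples.

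The members and lists were chosen with earlier results of these data known. Named genes were the 8 largest called rises and 4 called falls, paralogues of called genes, genes with a dim group, and up to 4 called genes of each other list. Some genes were named outside that rule: Wdr48, Dmwd, Fanci, Isg15, Usp18, Usp42 and other members with uneven arrays or probes, and Ube2u. They were chosen after their values were seen. Array probe coordinates are not used here, and protein identity within paralogue groups was not analysed here. One further gene is not reported here.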

Additional observations from a re-analysis of the deposited data

How the results depend on the processing

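The 10 higher and 4 lower Usp calls were the same genes under quantile normalization and in the authors' table. They were also kept under normexp background correction and with all 4 arrays well above background, each of which added Usp42. Spike-in scaling relative to the median of all features did the same, but it takes out the shift of all features. Its calls therefore do not bear on the spike-in result. Averaging probes ended the calls of Usp29 and Usp46 and added Usp27x and Usp42, and trend and robust moderation ended that of Usp18 and added Usp42. Without a filter on dim probes 9 were higher and 1 lower. Spike-in scaling gave 0 higher and 16 lower, a Usp median of -0.80 beside -1.20 for all features, 22 called other deubiquitinases and 39 called partner, ubiquitin and conjugation genes. It shifted the change of every tested Usp gene by the same -1.06, which turned 23 of 27 positive changes negative. Among them, those called in either scaling were Usp1 (-0.12), Usp15 (-0.99), Usp18 (-0.50), Usp29 (-0.17), Usp30 (-1.05), Usp33 (-0.30), Usp45 (-0.042), Usp5 (-1.05), Usp53 (-0.18) and Usp6nl (-0.26), and the cause of the shift itself was not tested. The Usp median less that of all features was between 0.23 and 0.45 in all settings run. Spike-in scaling moves all features alike and so cannot change that difference. Normexp correction put the median of all features at -0.00090, beside -0.15, and dropping the dim filter put it at 0.042.

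Called other deubiquitinases numbered 5 without the dim filter and 18 with trend and robust moderation. Leaving out 1 array gave 0 to 12 higher and 0 to 5 lower Usp genes, 0 to 9 other deubiquitinases and 2 to 18 genes of the remaining lists. The titles number the replicates, but the labels do not say whether same-numbered arrays belong together. Deviations of same-numbered arrays correlated at -0.38, which with 2 replicates a group cannot decide it. The main fit was unpaired. With the replicate number as a block 7 Usp genes were higher and 0 lower, with 3 other deubiquitinases and 9 genes of the remaining lists called. A crossed block, chosen after seeing the data like the relative spike-in scaling, gave 12 and 4, with 16 other deubiquitinases and 24 of the remaining lists. With 2 arrays a group, a missed threshold does not show that a level did not differ.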
